A study of Mus musculus with 39 samples.

Results

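The potassium channel genes of the mouse are those whose symbols begin with Kcn, and they are described here in the chromatin of cerebellar granule cells. Members were the gene identifiers of the deposited count table that map to a symbol made of Kcn, a family letter code and a number, with antisense transcripts left out. By this rule 92 of the 24045 identifiers in the table were potassium channel genes, in 20 families. They fell into 5 groups by how the channel is gated or built. The voltage-gated group held 40 genes, the calcium- or sodium-activated group 8, the inward rectifiers 15, the 2-pore-domain channels 14 and the auxiliary subunits 15.

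The study used chromatin immunoprecipitation and sequencing (ChIP-seq) on cerebellum of C57Bl/6J mice, with no transgene or allele named in the labels, at 7, 12 and 21 days after birth, written P7, P12 and P21. H3K4me3, a histone mark found at active promoters, was measured in 3, 2 and 2 libraries at P7, P12 and P21. H3K27me3, the mark written by Polycomb repressive complex 2, was measured in 5, 4 and 5 libraries. The P7 libraries came from granule cell progenitors sedimented in Percoll, and the P12 and P21 libraries from nuclei sorted for NeuN and NeuroD1, whose chromatin was also sonicated for longer. In every contrast with P7, age therefore cannot be told apart from isolation, whereas P21 and P12 share the isolation. The labels do not say whether replicates came from separate animals, so p-values measure only the spread between these libraries.

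Potassium channels set the resting potential, the shape and the rate of action potentials and the reach of synaptic input. Voltage-gated channels open on depolarisation, calcium- and sodium-activated channels follow the ions that enter during activity, inward rectifiers and 2-pore-domain channels hold the resting potential, and auxiliary subunits alter gating and traffic. Granule cells divide in the external layer of the young cerebellum, then migrate inward and mature into small neurons with a low resting conductance and fast firing. A promoter that carries H3K4me3 and H3K27me3 together is called bivalent, a state often found at developmental genes that are silent but can be switched on. In bulk chromatin such a promoter may also be a mixture of cells with either mark.

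Values are read counts at the transcription start site (TSS), scaled to a common library size with TMM factors (a trimmed mean of log ratios) and written as CPM. No source used here gives the window counted around each TSS. Fold changes, standard errors (SE) and adjusted p-values came from edgeR's quasi-likelihood test with Benjamini-Hochberg adjustment over all TSS, at a threshold of 0.05. Libraries held 431401 to 5653193 counts for H3K4me3 and 264093 to 2035801 for H3K27me3. The contrast of the H3K27me3 libraries, as the 95th percentile of CPM over the median, was 21.9 to 38.4 at P7, 5.27 to 12.8 at P12 and 3.64 to 9.44 at P21, so that it fell in the same order as the stages. In the H3K4me3 libraries the contrast was 4.313 to 6.625 at P7, 3.07 to 3.29 at P12 and 2.71 to 3.79 at P21. The part of contrast in the results below was not tested. H3K27me3 replicates 1 and 2 of a stage share an input and later replicates have their own, and the H3K27me3 fit carried this arrangement as a term. Because the samples are bulk, fewer cells with a mark and less mark per cell cannot be told apart.

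The labelled cell type was checked with marker lists. In H3K4me3, 7 of 8 markers of granule cells and their progenitors were tested. Cbln3 and Gabra6, of mature granule cells, rose from P7 to P21, and Atoh1, Barhl1, Pax6 and Zic1 fell. The summed H3K4me3 of the 4 oligodendrocyte-lineage markers was 98.2 to 138 CPM at P7 and 101 to 107 CPM at P21, that of the 3 microglia markers 17.8 to 38.2 and 46.9 to 49.3 CPM, and that of the 3 endothelial markers 28.0 to 55.4 and 51.3 to 62.3 CPM, so no list was at 0. The other lists summed to 123 to 202 CPM for astrocytes and Bergmann glia, 148 to 247 CPM for interneurons and Golgi cells, 94.3 to 155 CPM for unipolar brush cells and 179 to 289 CPM for Purkinje cells over the 3 stages. Peaks were counted where at least 2 libraries had them, of 3 at P7 and of 2 later, so the rule was stricter after P7. No microglial or endothelial marker had such an H3K4me3 peak at any stage. Granule cell markers had peaks at 6, 2 and 4 of 8 at P7, P12 and P21. Purkinje cell markers had them at 3, 1 and 1 of 5, and unipolar brush cell markers at 1, 2 and 2 of 3. In the same order, peaks lay at 2, 0 and 0 of 6 astrocyte and 1, 0 and 0 of 5 interneuron markers. Oligodendrocyte-lineage markers had 1, 0 and 1 of 4. Outside the granule cell list, H3K4me3 rose from P7 to P21 at Calb2 and fell at Foxp2, Lhx1, Kit, Eomes, Sox9 and Slc1a3. In H3K27me3, from P7 to P21, all 4 oligodendrocyte-lineage markers tested, all 3 of unipolar brush cells and 4 of 5 of interneurons and Golgi cells fell, while the fifth of these, Kit, rose. Other lists did not move one way: of 6 astrocyte and Bergmann glia markers 3 rose (Aqp4, Gfap and Sox9) and 1 fell, 1 rose and 1 fell among both the 4 Purkinje cell and the 2 endothelial markers tested, and none of 3 microglia markers passed the test. Of 5 markers tested of granule cells and their progenitors, Atoh1 rose in H3K27me3 from P7 to P21, and Barhl1 and Pax6 fell. The part of other cells in the results was not tested.

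Promoter sequences are shown for 4 members because they span the outcomes described next. They are the 250 bases upstream of the annotated start, from RefSeq on GRCm38.p6, 5′ to 3′ on the strand of the gene, with CG dinucleotides in capitals. Kcnk12 (chr17:87797995-87798244, minus strand) lost H3K27me3 and gained H3K4me3, and holds 16 CG dinucleotides. Kcnj9 (chr1:172329323-172329572, minus strand) had the largest H3K4me3 gain among the members tested and holds 5. Kcna3 (chr3:107035912-107036161, plus strand) carried peaks of both marks at all 3 stages and holds 31. Its H3K27me3 peaks at P21 came from replicates 3 and later alone. Kcnj6 (chr16:94997697-94997946, minus strand) fell in both marks and holds 26.
Kcnk12: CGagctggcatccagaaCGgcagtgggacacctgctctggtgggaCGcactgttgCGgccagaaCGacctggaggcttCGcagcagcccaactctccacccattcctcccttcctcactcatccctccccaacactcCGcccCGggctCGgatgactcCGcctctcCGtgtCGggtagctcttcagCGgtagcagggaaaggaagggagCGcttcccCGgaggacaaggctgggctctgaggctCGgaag
Kcnj9: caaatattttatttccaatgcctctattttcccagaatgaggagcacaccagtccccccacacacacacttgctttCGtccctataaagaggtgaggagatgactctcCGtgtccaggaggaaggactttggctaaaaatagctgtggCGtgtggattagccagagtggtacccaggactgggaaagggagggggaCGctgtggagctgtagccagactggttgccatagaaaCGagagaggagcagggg
Kcna3: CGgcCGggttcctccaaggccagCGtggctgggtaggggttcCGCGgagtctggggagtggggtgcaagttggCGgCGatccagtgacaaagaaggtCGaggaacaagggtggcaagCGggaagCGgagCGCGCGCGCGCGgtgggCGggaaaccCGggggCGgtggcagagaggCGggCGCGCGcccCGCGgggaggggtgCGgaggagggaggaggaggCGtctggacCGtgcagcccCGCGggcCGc
Kcnj6: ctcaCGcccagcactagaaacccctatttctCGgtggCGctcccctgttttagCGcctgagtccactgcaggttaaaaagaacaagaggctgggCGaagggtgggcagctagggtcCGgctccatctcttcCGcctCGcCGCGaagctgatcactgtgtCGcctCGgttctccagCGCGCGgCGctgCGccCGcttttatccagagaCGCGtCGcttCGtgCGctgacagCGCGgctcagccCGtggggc

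H3K27me3 was lower at most potassium channel TSS at the older stages under TMM scaling. Of 87 members tested, 51 fell and 8 rose from P7 to P21. Among all 18089 TSS tested the same contrast called 23.5% lower and 25.4% higher. The median log2 change was -1.16 over the members and 0.34 over all TSS, a difference of -1.5. From P7 to P12, 49 members fell and 6 rose, against 22% lower and 14.4% higher among all TSS, with medians of -1.13 and 0.18. From P12 to P21, 12 members fell and 2 rose, against 3.06% and 0.918%. With replicate number as a block, 10 fell and 1 rose. Kcnab2, Kcnd3, Kcnj11, Kcnj14 and Kcnmb4 had too few H3K27me3 reads to be tested.

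The split depended on how libraries were scaled. With library totals the median of all TSS moved to 1.42 on the log2 scale, and 38 members fell and 35 rose from P7 to P21, with a difference between members and all TSS again of -1.5. Of all 18089 TSS, 2429 fell and 12686 rose under that scaling. With a scaling that follows abundance, the median of all TSS was 0.08, 40 members fell and 18 rose, and the difference was -0.62. Here 3571 of all TSS fell and 2653 rose. From P7 to P12 the members split 33 lower and 29 higher with library totals, and 36 lower and 14 higher with the trended scaling. All TSS split 2077 lower and 11667 higher, and 2904 lower and 2047 higher. Each input arrangement was also fitted alone, a comparison chosen after seeing the data. In replicates 1 and 2, 50 of 81 members tested fell and 3 rose, against 3641 lower and 2474 higher of 14659 TSS. In replicates 3 and later, 43 of 91 fell and 3 rose, against 3304 lower and 1654 higher of 20834 TSS. Of the 51 members that fell with all libraries, 40 fell in both subsets, and Kcnj6 alone fell in neither. Of the 8 that rose, only Kcnma1 rose in both.

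Members fell in every group. In the voltage-gated group 25 of 39 members fell and 4 rose, with a median of -1.22. In the 2-pore-domain group 9 of 14 fell and 1 rose, with a median of -1.88. Among the inward rectifiers 8 of 13 fell and none rose (median -0.76). In the calcium- or sodium-activated group 4 of 8 fell and 2 rose (median -0.56), and among the auxiliary subunits 5 of 13 fell and 1 rose (median -0.28). Differences between groups were not tested. With library totals the medians of the inward rectifiers (0.32), the calcium- or sodium-activated group (0.51) and the auxiliary subunits (0.78) were above 0, and those of the voltage-gated (-0.10) and 2-pore-domain (-0.80) groups stayed below.

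**Figure D1:**
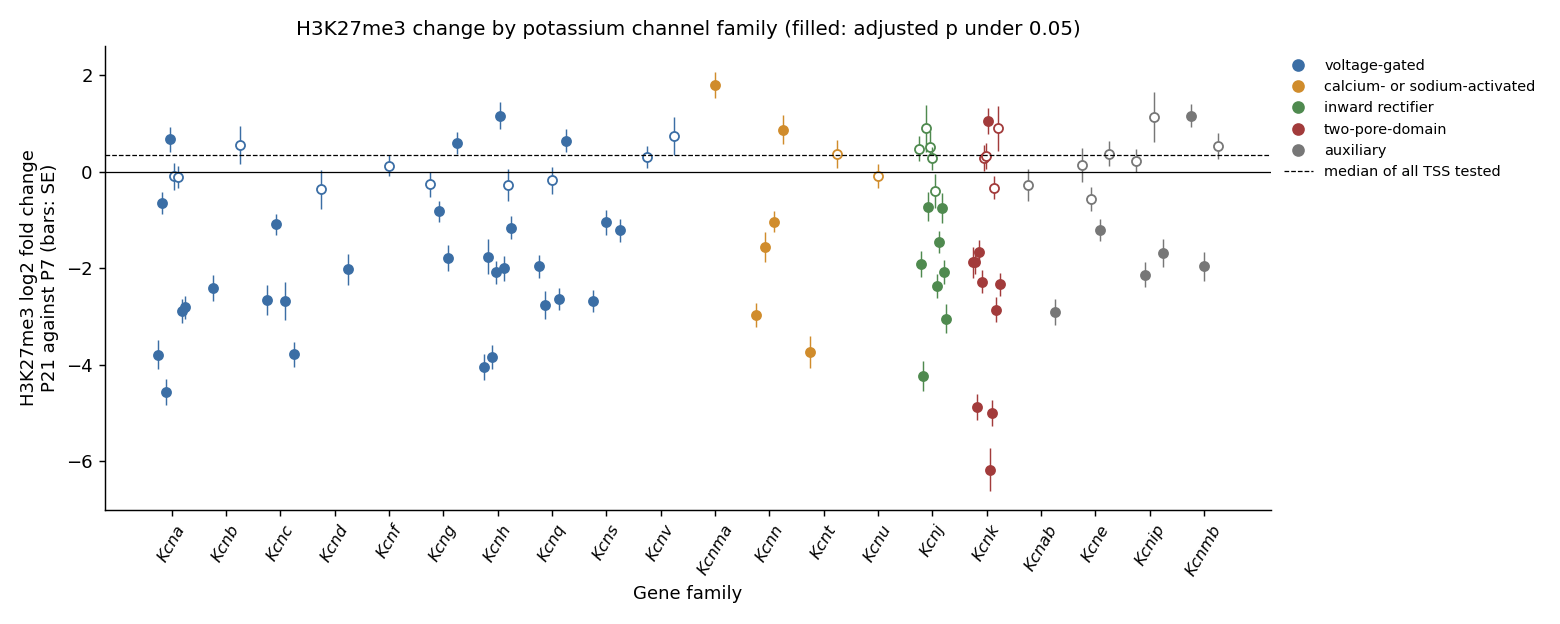
H3K27me3 change from P7 to P21 for each potassium channel family, as the log2 fold change of each tested member, with its SE, filled where the adjusted p is under 0.05; families are in the order of their group and the dashed line is the median of all TSS, 0.34. The Kcnh and Kcnk families have medians of -1.88 and -1.88, which stay below 0 under both other scalings, and Kcnma1 stands above 0 at 1.79.

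Among the voltage-gated channels, Kcnc4 fell furthest of the Kcnc genes named here. This family encodes Kv3 channels, which close quickly and permit high firing rates. Kcnc4 (chr3:107438298-107460287, minus strand) had 823, 996, 1005, 1022 and 931 CPM at P7, 124, 168, 304 and 193 CPM at P12 and 18.4, 55.1, 99.95, 87.2 and 96.5 CPM at P21. Every P7 library was above every P12 library, and every P12 library was above every P21 library. The P7 mean of 955 ± 81.4 CPM (SD, n = 5) fell to a P21 mean of 71.4 ± 34.5 CPM (SD, n = 5), with a log2 change of -3.79 (SE 0.26, edgeR adjusted p = 3.47e-18). Kcnc1 (-2.66) and Kcnc2 (-1.10) also fell, by less.

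The Kcna family, which encodes Kv1 channels of axons and terminals, was divided. Of 8 members, 5 fell and Kcna3 rose, while Kcna4 (-0.10) and Kcna5 (-0.11) did not pass the test. Kcna2 (chr3:107090883-107115005, plus strand) had 489, 546, 639, 548 and 406 CPM at P7, 63.7, 61.4, 119.8 and 66.04 CPM at P12 and 15.8, 16.1, 22.3, 24.8 and 31.3 CPM at P21. The stages did not overlap, and P12 replicate 3 stood above the other P12 libraries. The log2 change was -4.56 (SE 0.27, edgeR adjusted p = 7.57e-21). Kcna1, whose mutation causes episodic ataxia in humans, went from a P7 mean of 180.1 ± 13.9 CPM (SD, n = 5) to a P21 mean of 12.4 ± 6.9995 CPM (SD, n = 5), which was a fall of 3.79 on the log2 scale. Kcna6 (-2.90) and Kcna7 (-2.81) also fell, though Kcna7 kept 134 to 280.5 CPM at P21 from 1177 to 1703 CPM at P7.

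Kcna2 and Kcna3 are neighbours on chromosome 3 with starts at 107090883 and 107036162, and they differed in H3K27me3. Kcna3, a Kv1 subunit best known in lymphocytes, had 18.6, 41.98, 33.3, 69.7 and 40.4 CPM at P7, 32.7, 35.5, 71.3 and 80.6 CPM at P12 and 23.7, 45.9, 95.1, 80.7 and 89.7 CPM at P21. The stages overlapped, and replicates 3 and later stood above replicates 1 and 2 at P12 and P21. It rose by 0.67 on the log2 scale (SE 0.26, edgeR adjusted p = 0.0301), and the call was lost in 12 of 23 alternatives. Another gene of the cluster, Kcna10 (start at 107183143), fell by 0.65. The span from Kcna3 to Kcna10 thus held a large fall, a small fall and a small rise.

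The Kcnh family encodes the ether-à-go-go related channels, and 6 of its 8 members fell. Kcnh1, the founding ether-à-go-go channel, had 174, 273, 285, 349 and 222 CPM at P7, 15.5, 16.1, 36.6 and 27.4 CPM at P12 and 15.8, 6.89, 18.4, 19.4 and 17.7 CPM at P21. All later libraries were below all P7 libraries, and P12 and P21 overlapped. Kcnh1 fell by 4.05 on the log2 scale. Kcnh3, an Elk channel of forebrain neurons, had 996, 1119, 1257, 1343 and 1010.4 CPM at P7, 186, 134, 377 and 268 CPM at P12 and 42.1, 43.6, 113, 108 and 118 CPM at P21. No P21 library of Kcnh3 reached the lowest P12 library, and no P12 library reached the lowest P7 library. Its log2 change was -3.84 (SE 0.25, edgeR adjusted p = 5.59e-19). Kcnh5 went the other way, from a P7 mean of 31.8 ± 14.6 CPM (SD, n = 5) to a P21 mean of 73.7 ± 26.5 CPM (SD, n = 5), which was a rise of 1.15. Kcnh2 (-1.76), the pore of the rapid delayed rectifier of the heart, Kcnh4 (-2.09) and Kcnh6 (-2.003) also fell. Kcnh7 changed by -0.29 and did not pass the test.

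The Kcnq genes encode the channels of the M-current, which damps repetitive firing. The mainly cardiac and epithelial Kcnq1 fell by 1.96 on the log2 scale. Kcnq3 changed by -0.18 and did not pass the test. Kcnq5 had 52.4, 59.98, 51.5, 71.4 and 73.3 CPM at P7, 37.9, 33.9, 76.2 and 43.7 CPM at P12 and 76.3, 78.1, 127, 76.4 and 130.4 CPM at P21, with 3 of 4 P12 libraries below all P7 libraries and all P21 libraries above all P7 libraries. Its rise was 0.64 from P7 and 0.98 from P12 to P21 (edgeR adjusted p = 0.0238 and 0.0115). The first of these was called in neither input arrangement alone.

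The electrically silent subunits, which join Kcnb channels but form none alone, were mixed. All 3 Kcns genes fell, Kcns1 (-2.68), Kcns3 (-1.22) and Kcns2 (-1.05), although with library totals only 1 did. Kcnb2, a delayed rectifier, changed by 0.55 without passing the test. In the Kcng family Kcng2 (-0.82) and Kcng3 fell, Kcng1 (-0.27) did not pass the test, and Kcng4 rose by 0.58, and the family median of -0.54 became 0.54 with library totals and 0.67 with the trended scaling. Kcng3 differed between the input arrangements, with 522, 645, 1236, 1218 and 582 CPM at P7, 149.8, 136, 704 and 514 CPM at P12 and 73.7, 126, 509, 451 and 264 CPM at P21. Replicates 3 and 4 were above replicates 1 and 2 at every stage. Its log2 change was -2.59 in replicates 1 and 2 and -1.30 in replicates 3 and later. Kcnf1 (0.12), Kcnv1 (0.30) and Kcnv2 (0.73) did not pass the test, and neither did the A-type channel Kcnd1 (-0.37), while Kcnd2 fell by 2.03.

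Calcium- and sodium-activated channels held both the largest fitted gain and large losses. Kcnma1 (chr14:23292288-24005110, minus strand), the pore of the large-conductance BK channel opened by calcium and voltage, had 28.7, 32.99, 18.2, 27.2 and 41.9 CPM at P7, 53.4, 61.4, 91.1 and 46.3 CPM at P12 and 124, 110.3, 120.3, 50.6 and 125 CPM at P21. All P12 and P21 libraries were above all P7 libraries, with P21 replicate 4 apart from the other P21 libraries. The P7 mean of 29.8 ± 8.66 CPM (SD, n = 5) rose to a P21 mean of 106 ± 31.5 CPM (SD, n = 5), with a log2 change of 1.79 (SE 0.28, edgeR adjusted p = 2.13e-07). It was 1.85 in replicates 1 and 2 and 1.75 in replicates 3 and later. The start of 4930519K11Rik lies 119 bases from that of Kcnma1, so reads of the pair could not be told apart.

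The Kcnn genes encode small- and intermediate-conductance channels gated by calcium through calmodulin, and 3 of 4 fell. These were Kcnn1 (-2.97), Kcnn2 (-1.57) and Kcnn3 (-1.04). Kcnn3 had 336, 219, 297, 265 and 301 CPM at P7, 60.2, 75.9, 95.1 and 71.2 CPM at P12 and 108, 117, 164, 102 and 205 CPM at P21. It was lowest at P12 in all 4 libraries, and no P12 library reached the lowest P21 library. It fell by 1.89 to P12 and rose by 0.85 from P12 to P21 (edgeR adjusted p = 0.033). Its P21 against P7 value turned to 0.04 with library totals and 0.28 with the trended scaling, and the later rise was called in neither input arrangement alone and not with the replicate block. Kcnn4, the intermediate-conductance channel of blood and epithelial cells, rose by 0.87, a call found in neither arrangement alone and not under the trended scaling. Kcnt1, the sodium-activated Slack channel, fell by 3.75, and its relative Kcnt2 changed by 0.36 without passing the test.

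Among the inward rectifiers, 8 of 13 fell and none rose. Kcnj12, which encodes the constitutively active Kir2.2, had 125, 156, 263, 345 and 156 CPM at P7, 25.8, 41.98, 40.6 and 60.9 CPM at P12 and 0, 2.3, 16.5, 17.2 and 14.9 CPM at P21. All P21 libraries were below all P12 libraries, and these were below all P7 libraries. The log2 change was -4.23 (SE 0.31, edgeR adjusted p = 5.54e-17). The G-protein-gated subunit Kcnj9 had 108, 83.97, 45.4, 90.2 and 95.8 CPM at P7, 8.61, 19.4, 17.8 and 12.01 CPM at P12 and 5.26, 13.8, 10.7, 12.9 and 6.79 CPM at P21, with no overlap between P7 and later stages, and fell by 3.05. Kcnj6, another G-protein-gated subunit of granule cells, had 30.4, 35.99, 30.3, 34.9 and 26.9 CPM at P7, 13.8, 16.1, 23.8 and 25.7 CPM at P12 and 10.5, 18.4, 11.6, 22.6 and 29.9 CPM at P21. Most P21 libraries lay below the P7 range, and replicate 5 lay within it. It fell by 0.76 (edgeR adjusted p = 0.0355), and with library totals the sign turned, to 0.32 above P7 on the log2 scale. Kcnj3 changed by -0.41 and did not pass the test, and Kcnj5 fell by 1.46. Kcnj10, the glial Kir4.1 whose start lies next to that of Kcnj9 on chromosome 1 (172341210 and 172329322), fell by 1.92. Kcnj4 (-2.38), a Kir2 channel, and Kcnj8 (-2.08), an ATP-sensitive pore, fell, as did Kcnj15 (-0.72). Kcnj1, Kcnj2, Kcnj13 and Kcnj16 gave values from 0.27 to 0.90 that did not pass the test at P21.

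The 2-pore-domain channels, which carry background leak, held the 3 lowest fitted log2 changes of all members, at Kcnk3, Kcnk4 and Kcnk12. Kcnk4 (chr19:6925662-6934883, minus strand), the mechanosensitive channel TRAAK, had 730.5, 834, 784, 698 and 778 CPM at P7, 68.9, 51.7, 106 and 69.5 CPM at P12 and 15.8, 29.9, 24.3, 21.5 and 27.2 CPM at P21. The stages were far apart and replicates within a stage were close, with means of 765 ± 52.2 CPM (SD, n = 5), 73.98 ± 22.8 CPM (SD, n = 4) and 23.7 ± 5.42 CPM (SD, n = 5). The log2 change from P7 to P21 was -5.01 (SE 0.27, edgeR adjusted p = 2.18e-22), and it was -5.13 and -4.93 within the earlier and later replicates. Kcnk12 (chr17:87745821-87797994, minus strand), a halothane-inhibited type channel, had 671, 861, 833, 752 and 608 CPM at P7, 80.9, 95.3, 173 and 123 CPM at P12 and 18.4, 18.4, 27.2, 32.3 and 29.9 CPM at P21. Here too no stage overlapped another. Its log2 change was -4.87 (SE 0.27, edgeR adjusted p = 5.76e-22).

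**Figure D2:**
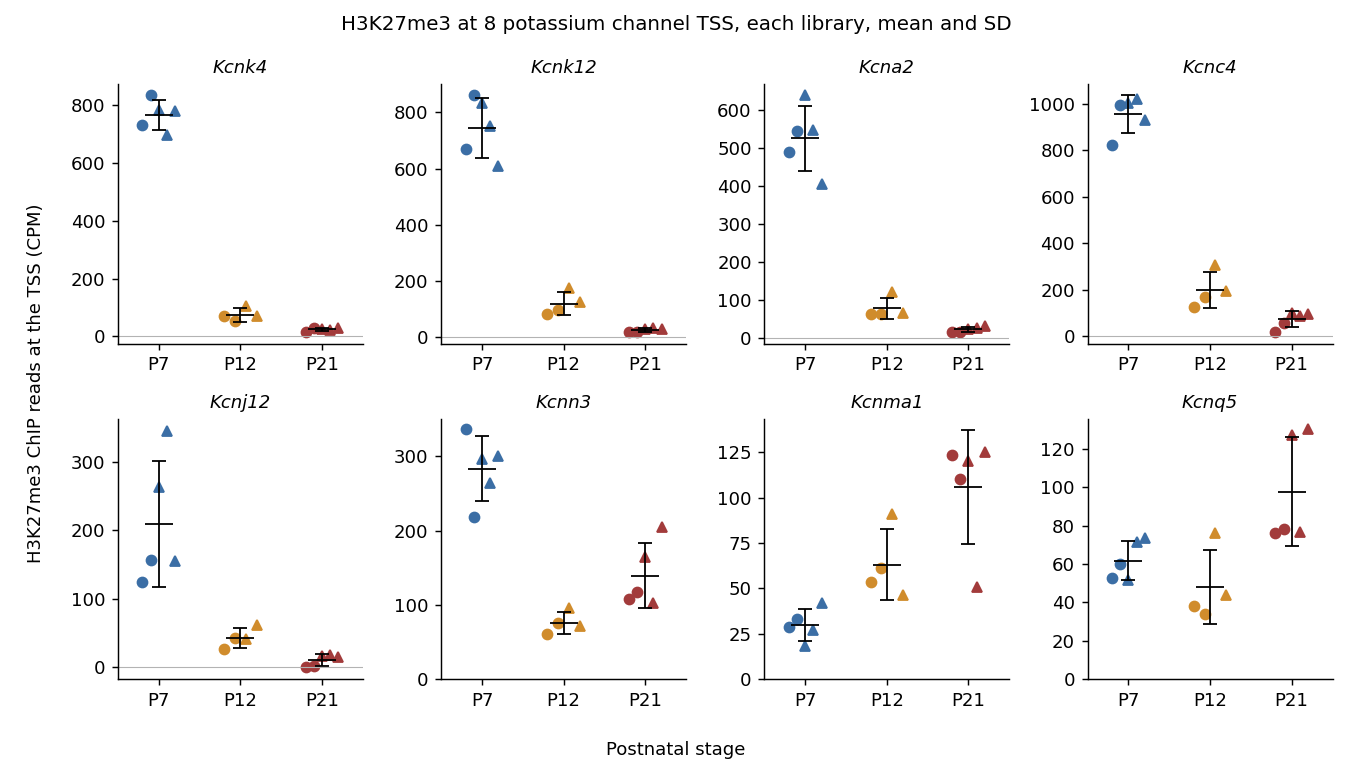
H3K27me3 at the TSS of 8 potassium channel genes, in CPM for each library by stage (circles, replicates 1 and 2; triangles, replicates 3 and later; bar, mean; whisker, SD). Kcnk4, Kcnk12, Kcna2, Kcnc4 and Kcnj12 step down from P7 to P12 and again to P21, Kcnn3 is lowest at P12, and Kcnma1 and Kcnq5 are highest at P21.

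Kcnk3, the acid-sensitive TASK1 channel, had a fitted log2 change of -6.17, which rests on few reads at P21. Its values were 42.3, 38.98, 218, 149 and 55.4 CPM at P7, 5.16, 3.23, 14.9 and 12.9 CPM at P12 and 0, 0, 1.94, 2.15 and 1.36 CPM at P21, and its P21 libraries held 0, 0, 2, 2 and 1 reads. Its start lies 449 bases from that of Gm9899, and its H3K4me3 reads were too few to test, although peaks put it among TSS with both marks at P12 and with H3K4me3 alone at P21. Kcnk9, the TASK3 channel of the granule cell standing outward current, fell by 2.33 and had a P7 mean of 576 ± 66.7 CPM (SD, n = 5) and a P21 mean of 119 ± 52.5 CPM (SD, n = 5). Kcnk1 (-1.88), Kcnk6 (-2.86), Kcnk10 (-1.87), Kcnk13 (-1.66) and Kcnk15 (-2.28) also fell. Kcnk5 (-0.33), Kcnk7 (0.89) and Kcnk18 (0.32) did not pass the test. Kcnk2, the mechanosensitive and lipid-gated TREK1, had 23.7, 11.99, 42.4, 26.4 and 25.4 CPM at P7, 32.7, 33.9, 32.7 and 25.7 CPM at P12 and 68.4, 62.03, 44.6, 45.2 and 54.3 CPM at P21. All of its P21 libraries were above all P7 libraries, and it rose by 1.04 (SE 0.27, edgeR adjusted p = 0.00115).

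Among the auxiliary subunits, 5 of 13 fell and 1 rose. Besides Kcnip4, these losses were at Kcnab3 (-2.91), a beta subunit of Kv1 channels, Kcnip2 (-2.13), a calcium-binding subunit of A-type channels, the BK subunit Kcnmb2 (-1.96) and Kcne3 (-1.22). Kcnip4, the subunit of A-type channels that is abundant in granule cells, had 47.3, 32.99, 27.3, 68.9 and 56.9 CPM at P7, 29.3, 30.7, 61.4 and 42.9 CPM at P12 and 18.4, 9.19, 17.5, 15.1 and 17.7 CPM at P21. P12 overlapped P7, and P21 lay below both. It changed by -0.21 to P12 (edgeR adjusted p = 0.544) and fell by 1.47 from P12 to P21 (adjusted p = 0.000648). Kcnmb1, the smooth-muscle BK subunit, had 67.6, 83.97, 57.5, 60.4 and 55.4 CPM at P7, 94.7, 88.8, 149.5 and 90.05 CPM at P12 and 145, 98.8, 167, 124 and 185 CPM at P21. All later libraries were above all P7 libraries, and it rose by 1.16. Kcnmb1 and Kcnip1, another A-type subunit, lay in 1 shared H3K27me3 region, which was chr11:33951870-34008639 at P7 (56770 bases), chr11:33950602-34007642 at P12 (57041 bases) and chr11:33901180-34013096 at P21 (111917 bases). Kcnip1 itself changed by 0.23 at its TSS and did not pass the test. Kcnip3, a calcium-binding protein also called DREAM, rose by 1.60 from P7 to P12 (edgeR adjusted p = 0.0102) and differed by 1.13 at P21 (adjusted p = 0.0638), with 10.1, 2.999, 0, 5.95 and 4.49 CPM at P7, 17.2, 19.4, 17.8 and 13.7 CPM at P12 and 18.4, 4.59, 6.79, 13.99 and 16.3 CPM at P21. Its levels were low, with P12 above P7 and P21 overlapping both. Kcnab1 (-0.28) and Kcne2 (-0.57) did not pass the test at P21.

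Most losses were already called at P12. Over all TSS tested, 22% were called lower from P7 to P12, 23.5% from P7 to P21 and 3.06% from P12 to P21. The crossing of the steps and the sizes of falls were counted for members only. Of the 51 members lower at P21 than at P7, 47 were lower at P12 than at P7, 36 of them at that step only, and 11 at both steps. Those that also fell from P12 to P21 included Kcnk4 (-1.66), Kcnk12 (-2.22), Kcna2 (-1.82), Kcnj12 (-2.04), Kcnc4 (-1.51) and Kcnh3 (-1.57). Kcnip4 was lower at the second step only. In contrast, Kcna6 (0.01), Kcnc1 (-0.004) and Kcnn2 (-0.03) gave P21 against P12 values near 0. In all, 30 members fell by at least 2 on the log2 scale from P7 to P21 and 11 by at least 3. Of the 12 calls at the second step, 8 were made in each input arrangement and 6 in both. The call at Kcnt1 was made in neither, and not with the replicate block.

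Peaks gave the same members a presence or absence of each mark. A TSS was counted with a mark when peaks of at least 2 libraries covered a place within 1000 bases of it. At P7, 32 of 92 members had both marks (34.8%, against 13% of 23985 TSS), 40 had H3K27me3 only (43.5%, against 14.8%), 4 had H3K4me3 only and 16 had neither. H3K27me3 was present at 72, 50 and 46 members at P7, P12 and P21, which is 78.3, 54.3 and 50% of members, against 27.8, 17.3 and 19.1% of all TSS. H3K4me3 was present at 36, 21 and 19 members, which is 39.1, 22.8 and 20.7%, against 47, 28.7 and 25.6%. The size of this fall depended on the rule. With a peak asked of every library, P7 had 13 members with both marks and 11 with H3K4me3 only, in place of 32 and 4. Over all TSS these shares were 3.74 and 33.6%, in place of 13 and 33.9%. The later H3K4me3 counts are the same under that rule. Members with both marks numbered 32, 12 and 5, which is 34.8, 13 and 5.43%, against 13, 2.2 and 1.32% of all TSS. These counts rest on peak calling in libraries of unlike contrast, and peaks of single H3K27me3 libraries covered 57 to 74 members at P7, 30 to 57 at P12 and 13 to 48 at P21. For H3K4me3, the P7 libraries covered 46, 24 and 37 members in order of replicate. The P12 libraries covered 27 and 25, and the P21 libraries 20 and 42. P21 replicate 2 alone thus covered more members than the 36 counted at P7.

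**Figure D3:**
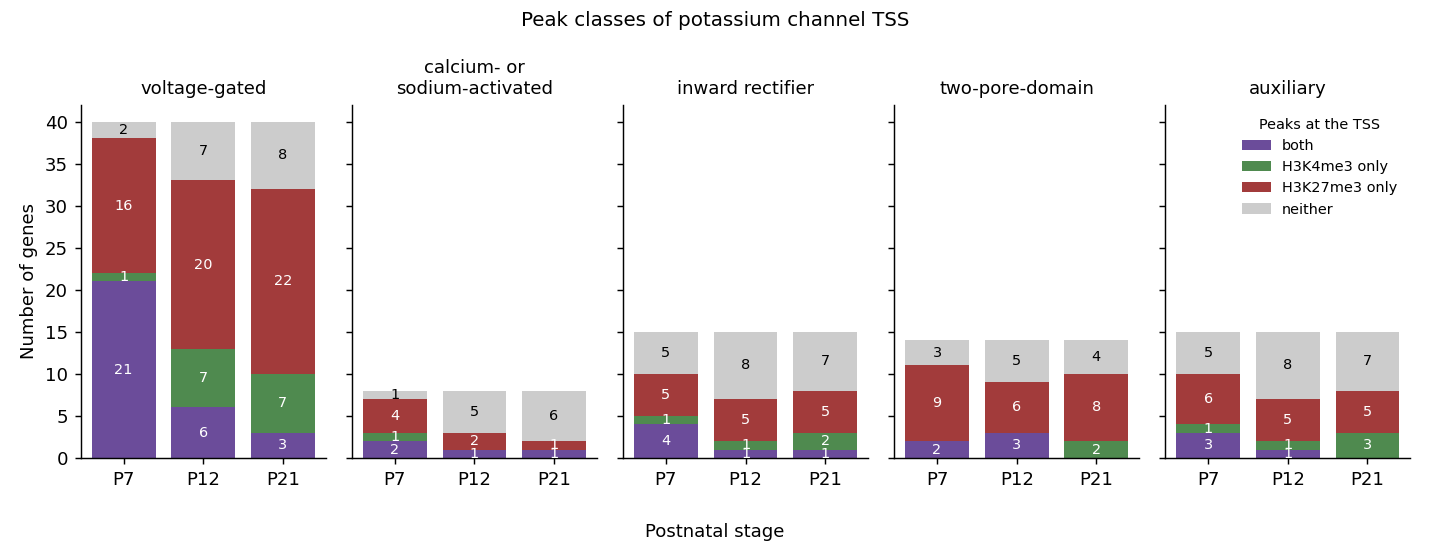
Number of potassium channel genes by the marks found (both, H3K4me3 alone, H3K27me3 alone, or none) within 1000 bases of the TSS, in stacked bars by stage for each functional group. The voltage-gated group has 21, 6 and 3 of 40 genes with both marks at P7, P12 and P21, and 22 with H3K27me3 only at P21.

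The peak classes leaned on the later H3K27me3 libraries. With replicates 1 and 2 alone, 22, 4 and 1 members had both marks at P7, P12 and P21, and 12 had H3K27me3 only at P21 in place of 41. The inputs of replicates 3 and 4 themselves had peaks at many members: input 3 covered 59, 56 and 44 across the stages and input 4 covered 23, 50 and 59, while the shared inputs covered none. Without peaks that overlapped an input peak, both marks were found at 30, 5 and 3 members.

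By P21, the 32 members that began with both marks divided into 11 with H3K4me3 alone, 11 with H3K27me3 alone, 5 that kept both and 5 with neither. The shares of 34.4, 34.4, 15.6 and 15.6% stood beside 33.7, 32.6, 8.15 and 25.5% among all TSS with both marks at P7. The stricter H3K4me3 rule after P7 bears on the loss of H3K4me3 peaks here, in members and in all TSS alike. Kcna1, Kcnc1, Kcnd2, Kcnd3, Kcnj6 and Kcns2 had H3K4me3 only from P12 onward, and those that reached it at P21 only included Kcnip4, Kcnj12 and Kcnk12. With replicates 1 and 2 alone, Kcnd2, Kcnd3 and Kcnj6 had H3K4me3 only at P7 already. So did Kcnd3 without peaks that overlapped an input peak, and its H3K27me3 reads were too few to test. Kcnip4 and Kcnj12 had H3K4me3 only from P12 onward in either alternative. Kcna3, Kcnc4, Kcnma1 and Kcnq5 had both marks at all 3 stages, although H3K27me3 at P21 was 18.4 to 99.95 CPM at Kcnc4, below its P7 range, and 50.6 to 125 CPM at Kcnma1, above it. With replicates 1 and 2 alone, all of these had H3K4me3 only at P21. Without peaks that overlapped an input peak, Kcnc4 alone had both throughout. Kcna3 then had H3K4me3 only at P21, Kcnma1 at P12 and P21, and Kcnq5 at P12. A set of 27 members had H3K27me3 only throughout, among them Kcna2, Kcnk4 and Kcnh3, whose counts fell steeply all the same. In Kcnk4 and Kcna2 the P21 peaks came from replicates 3 and 5 alone. At members with H3K27me3 regions the median region was 7312, 5815 and 6930 bases wide at P7, P12 and P21.

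Members were also counted by their P7 class, which rests on the same P7 libraries as the change, so no test was made. Of 40 members with H3K27me3 only at P7, 75% fell and 5% rose to P21, with a median of -1.90. Over all TSS of that class the values were 62.3%, 3.91% and -1.11. Of 30 tested members with both marks, 70% fell and 13.3% rose, with a median of -1.72, beside 60.9%, 8.3% and -1.16 over all such TSS. Of 15 tested members with neither mark, none fell and 2 rose, with a median of 0.51, beside 3.34% lower, 36.5% higher and 0.60 over all such TSS.

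H3K4me3 was called changed at fewer members than H3K27me3, and the balance of gains and losses depended on the tool. From P7 to P21, 11 of 86 members tested rose and 3 fell, against 8.98% higher and 14.4% lower among all 20748 TSS tested. The median log2 change was 0.52 over members and 0.19 over all TSS. With H3K27me3 only at P7, members and all TSS had medians of 0.77 and 0.71, and with neither mark 0.76 and 0.91. With both marks the medians were -0.08 and -0.25, and with H3K4me3 only 0.38 (3 members) and -0.54. In the same order of classes, 10.5, 23.1, 12.5 and 0% of members rose, against 14.6, 16, 4.13 and 0.467% of all TSS. These classes rest on the same P7 libraries, so no test was made. From P7 to P12, 7 members rose and 2 fell, against 5.34% and 9.21%, with medians of 0.39 and 0.16. From P12 to P21 edgeR called 0 members, against 0% higher and 0% lower among all TSS. At an unadjusted p under 0.05 that contrast held 1 member and 206 TSS in all, and DESeq2 called 0 members, with 1 member and 50 TSS at the unadjusted threshold. Kcne1, Kcne4, Kcnj15, Kcnk3, Kcnmb4 and Kcnv2 had too few H3K4me3 reads to be tested. By group, the gains were at 5 voltage-gated genes, 2 of the 2-pore-domain group, 2 auxiliary subunits, 1 calcium-activated channel and 1 inward rectifier.

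These H3K4me3 counts hung on single libraries and settings. The 11 gains from P7 to P21 became 1 without P21 replicate 2, 2 without P21 replicate 1, 6 without P7 replicate 1, P12 replicate 1 or P12 replicate 2, 7 without P7 replicate 3 and 21 without P7 replicate 2. The 3 losses became 0 without either P21 library, 1 without P7 replicate 1 and 5 without P7 replicate 2. The 7 gains to P12 became 1 without either P12 library, 2 without P21 replicate 1 and 13 without P7 replicate 2, and the 2 losses became 0 without P7 replicate 1 or either P12 library and 6 without P7 replicate 2. DESeq2 called 2 gains and 3 losses to P21, and 1 gain and 2 losses to P12, so that its losses outnumbered its gains. Over all 20748 TSS it called 294 higher and 2374 lower to P21, and 239 higher and 1391 lower to P12. DESeq2 gave an adjusted p for 70 of the 86 members to P21 and for 61 to P12. With library totals 17 members rose and 3 fell to P21, and with the trended scaling 11 rose and 0 fell. Over all TSS these scalings gave 2549 higher and 1479 lower, and 595 higher and 743 lower.

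Kcnj9 (chr1:172320508-172329322, minus strand) had the strongest H3K4me3 gain, called under every alternative run. This gene encodes GIRK3, a subunit of channels opened by G-protein-coupled receptors. Its values were 13.99, 5.73 and 13.4 CPM at P7, 51.5 and 82.96 CPM at P12 and 67.7 and 52.96 CPM at P21. The P7 libraries were all far below the rest, and P12 and P21 overlapped. The stage means were 11.03 ± 4.59 CPM (SD, n = 3), 67.2 ± 22.2 CPM (SD, n = 2) and 60.3 ± 10.4 CPM (SD, n = 2), a log2 rise of 2.42 to P12 and 2.24 to P21 (SE 0.34, edgeR adjusted p = 3.99e-08). It had no consensus H3K4me3 peak at any stage. The 5 CG dinucleotides of the promoter printed above are the fewest of the 4 shown.

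Other gains were smaller. Kcnh3 had 17.03, 19.1 and 18.9 CPM at P7, 28.6 and 35.9 CPM at P12 and 45.1 and 45.5 CPM at P21, with P7 below both later stages, and rose by 1.33 (edgeR adjusted p = 0.0057). Kcnc4 had 41.2, 38.2 and 35.4 CPM at P7, 83.96 and 80.7 CPM at P12 and 51.3 and 96.1 CPM at P21, again without overlap between P7 and later libraries, and rose by 1.01. Kcnk12 had 57.8, 89.8 and 58.1 CPM at P7, 135 and 108 CPM at P12 and 94.4 and 137 CPM at P21, with all later libraries above the P7 libraries, and rose by 0.87. Kcna2 had 47.03, 15.3 and 42.4 CPM at P7, 68.7 and 94.2 CPM at P12 and 71.8 and 68.4 CPM at P21, without overlap between P7 and later libraries, and rose by 0.85. Kcna6 (0.93), Kcnh1 (0.82) and Kcnip4 (0.66) also rose. Kcnn4, Kcnmb3 and Kcnk16 rose by 1.999, 1.55 and 1.49 from low levels, with 3.82 to 10.2, 5.88 to 15.3 and 8.11 to 15.3 CPM at P7.

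H3K4me3 fell at Kcnh8, Kcnab2 and Kcnj6. Kcnh8, an Elk channel, had 106, 103 and 103 CPM at P7, 89.7 and 47.1 CPM at P12 and 45.1 and 60.9 CPM at P21, with all P7 libraries above the rest, and fell by 0.91. Kcnab2, the Kv-beta subunit of axonal Kv1 channels, had 148, 74.5 and 116 CPM at P7, 53.4 and 62.8 CPM at P12 and 55.4 and 71.7 CPM at P21 and fell by 0.84, and the start of Nphp4 lies 843 bases from its own. Kcnj6, the GIRK2 subunit mutated in the weaver mouse with its granule cell loss, had 147, 97.5 and 138 CPM at P7, 68.7 and 69.5 CPM at P12 and 61.6 and 83.9 CPM at P21 and fell by 0.79 (edgeR adjusted p = 0.0131). In Kcnj6 every P7 library was above every later one, whereas in Kcnab2 P7 replicate 2 was close to the later libraries. None of the 3 was called under the trended scaling.

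**Figure D4:**
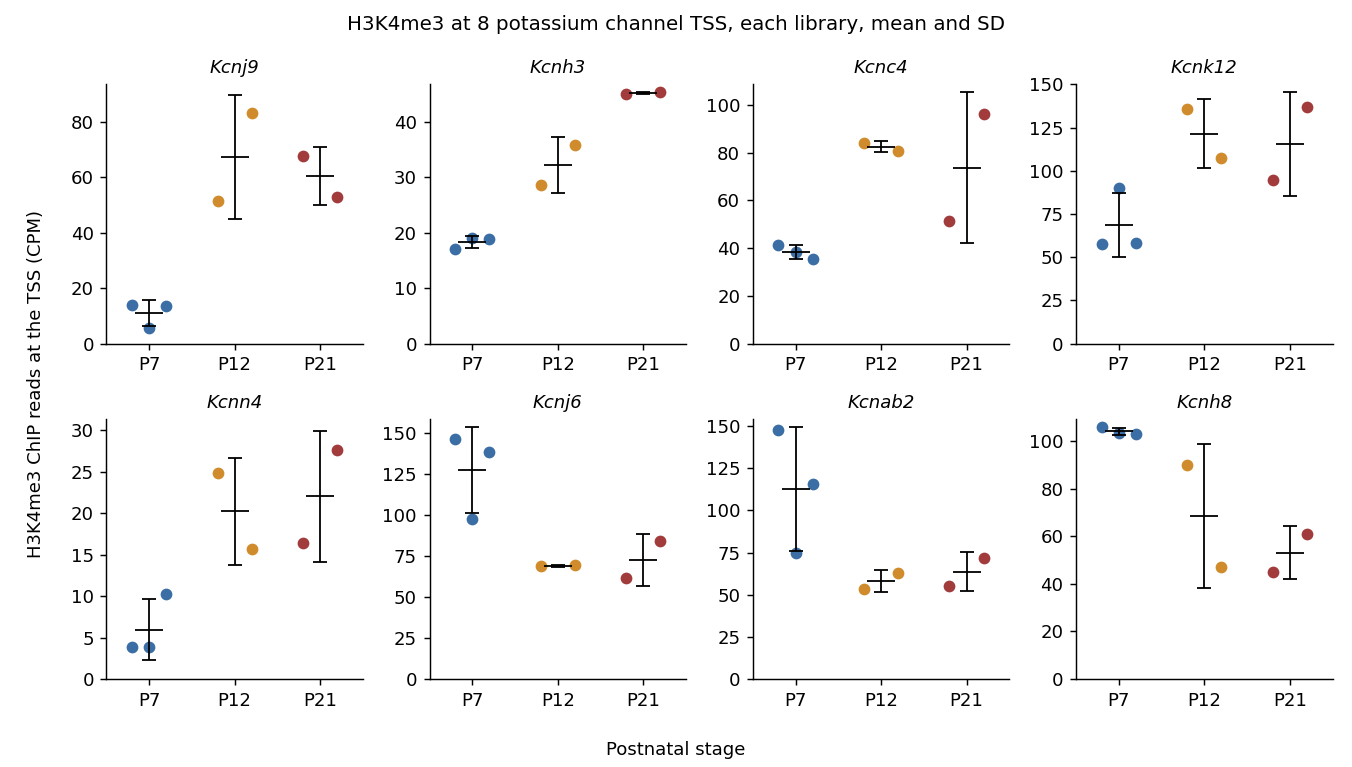
H3K4me3 at the TSS of 8 potassium channel genes, in CPM for each library by stage (bar, mean; whisker, SD). Kcnj9, Kcnh3, Kcnc4, Kcnk12 and Kcnn4 lie lower at P7 than later, and Kcnj6, Kcnab2 and Kcnh8 lie higher at P7.

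In read counts, the marks moved in opposite directions at 8 members, which lost H3K27me3 and gained H3K4me3 from P7 to P21. These were Kcna2, Kcna6, Kcnc4, Kcnh1, Kcnh3, Kcnip4, Kcnj9 and Kcnk12, from 5 families of channel pores and 1 of auxiliary subunits. Peaks did not follow these calls throughout. Of the 8, only Kcnc4, Kcnip4 and Kcnk12 had a consensus H3K4me3 peak at P21. By peaks, Kcna6 went from both marks at P7 to H3K27me3 only at P21, the reverse of its counts. Its H3K4me3 peaks lay in P7 replicates 1 and 3 and in P21 replicate 2, and the last fell short of the 2 libraries needed. Kcna2 and Kcnh3 had H3K27me3 only at both stages, and Kcnh1 and Kcnj9 went from H3K27me3 only to neither. Kcnh8 and Kcnj6 fell in both marks and Kcnn4 rose in both. No member gained H3K27me3 and lost H3K4me3. The 8 were 9.76% of the 82 members tested in both marks, and the same pattern held at 2.54% of 16786 TSS. The count stayed at 8 with any 1 H3K27me3 library left out, but it was 1 without either P21 H3K4me3 library or with the replicate block, 2 with DESeq2, 4 with DESeq2's size factors, without the filter or without either P12 library, 5 without P7 replicate 1 and 13 with library totals. The GIRK subunits Kcnj6 and Kcnj9, which can join in 1 channel, both fell in H3K27me3 and moved apart in H3K4me3. Most members that lost H3K27me3 showed no called H3K4me3 change, such as Kcnk4 (1.02, edgeR adjusted p = 0.0925) and Kcna1 (0.07).

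**Figure D5:**
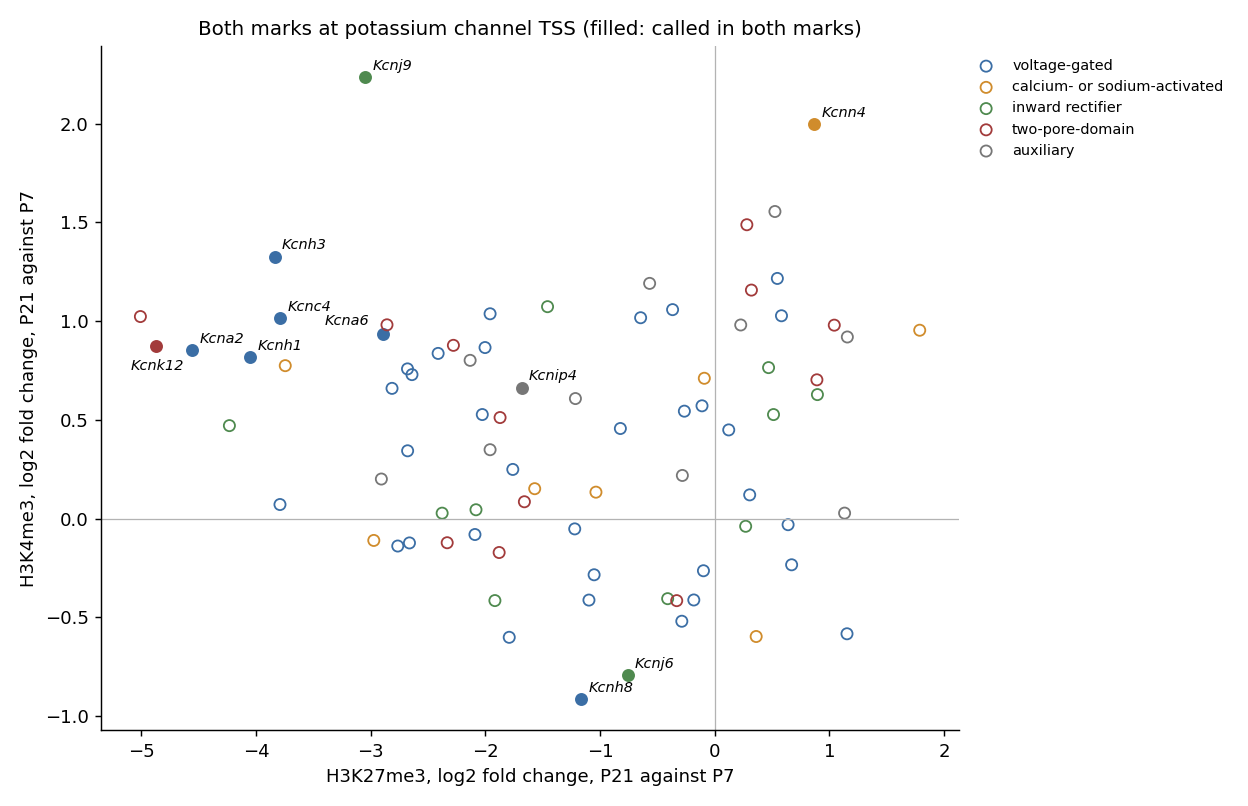
Change from P7 to P21 in H3K27me3 (x axis, log2 fold change) against that in H3K4me3 (y axis, log2 fold change) for the members tested in both marks. Filled points are the 11 called in both marks, 8 of them with H3K27me3 lower and H3K4me3 higher.

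A list of 18 members behind known potassium currents of granule cells was counted apart. Of 17 tested, 14 fell in H3K27me3 from P7 to P21 and 1, Kcnma1, rose, with a median of -2.33, beside 23.5% lower and 25.4% higher among all TSS. In H3K4me3, 3 of 17 tested rose (Kcna2, Kcnip4 and Kcnj9) and 2 fell (Kcnab2 and Kcnj6), beside 8.98% and 14.4% among all TSS. The numbers of these 18 genes with both marks were 10, 5 and 1 at P7, P12 and P21, beside 13, 2.2 and 1.32% of all TSS.

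Genes whose products bind or regulate the channels were taken as a second list of 20. In H3K27me3, 11 of 17 tested fell from P7 to P21 and 4 rose, with a median of -1.32, against the same 23.5% and 25.4% of all TSS. The A-type channel subunits Dpp10 and Dpp6 gave log2 changes of -3.80 and -1.32, the BK gamma subunit Lrrc26 -4.17 and Lgi1, a secreted partner of Kv1 complexes, -2.52. Another BK gamma subunit, Lrrc55, rose by 2.07. In H3K4me3, 3 of 20 tested rose, Dpp10 (0.79), Lgi1 (1.40) and Lrrc38 (0.83), and Vapa alone fell, against 8.98% and 14.4% of all TSS.

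Promoter sequence was read for the 54 members whose RefSeq promoter starts within 1000 bases of the annotated TSS, from 67 of 92 members with an entry. The observed over expected ratio of CG dinucleotides in the 300-base window had a median of 0.438 in members and 0.588 in all 16298 promoters. It was 0.648 in the 19 members with both marks at P7, 0.34 in the 24 with H3K27me3 only and 0.322 in the 9 with neither, and the corresponding medians of all promoters were 0.781, 0.428 and 0.187. The median ratio was thus higher in members with both marks than in members with H3K27me3 alone, as it was over all promoters. It was 0.722 in the 2 members with H3K4me3 only and 0.825 over all such promoters. The letters TATAAA, searched on both strands, occurred in 3 members (5.56%, against 13.2% of all promoters). TTGGCA, the shorter part of the site bound by nuclear factor I proteins, occurred in 4 (7.41%, against 13.3%), and CAGCTG, a form of the E-box, in 12 (22.2%, against 15.5%).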

How the data were processed

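H3K4me3 and H3K27me3 were measured by ChIP-seq with 75-base single-end reads in 21 libraries, with 18 inputs. The authors deposited a table of read counts per gene TSS, whose values were whole numbers and were used as raw counts. They also deposited 1 peak list per library, with a score per peak that no source explains; it was used only to rank peaks within a list, in 1 alternative. The tools named in the submitters' processing notes are HOMER 4.11 and ChIPseeker 1.30.3, and the build is mm10. How reads were aligned and counted is not given in the sources read. Libraries were made with either of a pair of kits, per the labels, with no statement of which.

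Identifiers were joined to a GRCm38.p6 annotation; 23985 had a position and 60 had none. All genes were fitted in R 4.3.3 with edgeR 4.0.16 (filterByExpr, TMM scaling, robust quasi-likelihood test), with the 3 stages of a mark in 1 fit, by stage alone for H3K4me3 and by stage and input arrangement for H3K27me3. P-values are two-sided and Benjamini-Hochberg adjusted over all TSS. The fit was tested on simulated counts. The 6 genes with missing H3K27me3 values were left out of that fit. Consensus peak regions were those covered by peaks of at least 2 libraries of a stage and mark, and a region within 1000 bases of a TSS counted. The smallest chi-square per TSS between replicates was 1.2, so none were merged.

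From the data alone, same-numbered H3K27me3 libraries of P12 and P21 deviated together (correlations of 0.319 to 0.624 in 4 of 4 pairs), so that replicate numbers were taken to pair them. The fit behind the printed values did not carry this pairing, and a replicate block was run as an alternative. Correlations over 0.1 were found in 3 of 4 H3K27me3 pairs of P7 and P12 and 3 of 5 of P7 and P21. Among H3K4me3 pairs there were 0.

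Alternatives were library totals, a trended (loess) scaling, DESeq2 1.42.0 and its size factors, no filter, no arrangement term, a replicate block, each library left out, other peak rules and, added after seeing the data, each input arrangement alone. Members, gene groups and lists were chosen with earlier results of these data known, so their counts are descriptions. Named genes were, per mark and group, up to 3 members per direction with the smallest p from P7 to P21, up to 4 from P7 to P12 and up to 6 from P12 to P21, those called in opposite directions in the marks, and the list of granule cell currents; other members were added after their values were seen, to complete a family. Some members that the rule names are not reported here by name.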

Additional observations from a re-analysis of the deposited data

Results flagged for a closer look

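Of 120 groups of 4 or 5 H3K27me3 libraries, over 40 named members, 10 held a library that stood apart from the rest of its group by Dixon's ratio, a rule that chance meets in about 1 group in 20. P12 replicate 3 stood above the other P12 libraries at 3 members. It had 119.8 CPM at Kcna2, where the others had 61.36 to 66.04, 237.6 CPM at Kcng4 (others 152.7 to 163.1) and 149.5 CPM at Kcnmb1 (others 88.81 to 94.67). P12 replicate 4 had 18.01 CPM at Kcnc1 (others 5.164 to 6.459) and 25.73 CPM at Kcnk2 (others 32.67 to 33.91). P21 replicate 4 had 50.58 CPM at Kcnma1, below the 110.3 to 125 of the other P21 libraries. P21 replicate 2 had 6.892 CPM at Kcnh1 (others 15.79 to 19.37), and P21 replicate 5 had 72.01 CPM at Kcnh8 (others 34.22 to 43.67). At P7, replicate 2 had 635.8 CPM at Kcna6 (others 513.7 to 526.9), and replicate 3 had 0 reads at Kcnab2, where the others had 5.954 to 7.484 CPM and the gene was not tested.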

How the results depend on the processing

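The H3K27me3 losses were the steadiest result when single libraries were left out. Each library left out in turn gave 47 to 49 members lower from P7 to P12. It gave 48 to 52 from P7 to P21 and 8 to 15 from P12 to P21. The gains were less steady, with 2 to 6, 4 to 9 and 0 to 3, the lowest without P12 replicate 3 (2), without P21 replicate 5 (4) and without P12 replicate 1, 2 or 4 (0); without P21 replicate 2, 3 or 5 there was 1. The losses moved more with scaling and subset. Members called lower from P7 to P12 were 49, and 33 with library totals, 36 with the trended scaling and 34 in replicates 3 and later only. Lower from P7 to P21 were 51, and 38, 40 and 43 in the same settings. Lower from P12 to P21 were 12, and 13, 13 and 8, and 17 with DESeq2. Members called higher from P7 to P12 were 6, and 29 with library totals, 14 with the trended scaling and 1 in replicates 3 and later only. Higher from P7 to P21 were 8, and 35 with library totals, 18 with the trended scaling and 3 within either input arrangement. Higher from P12 to P21 were 2, and 5 with library totals, 4 with DESeq2, 1 without the filter, 1 with a replicate block, and 0 without the arrangement term or in replicates 3 and later only. The reversed single values were Kcnj6 with library totals (0.32) and Kcnn3 with library totals (0.038) and the trended scaling (0.28), all for H3K27me3 from P7 to P21.

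H3K4me3 counts moved more. Gains from P7 to P12 were 7, and 11 with library totals, 1 with DESeq2, 2 with a replicate block and 1 to 13 with a library left out; losses were 2, and 0 with the trended scaling or the block and 0 to 6 with a library left out. Gains from P7 to P21 were 11, and 17 with library totals, 7 with DESeq2's size factors, 2 with DESeq2, 7 without the filter, 2 with the block and 1 to 21 with a library left out; losses were 3, and 0 with the trended scaling or the block and 0 to 5 with a library left out. No alternative with a library left out called a member from P12 to P21 (0 in each). Members with both marks at P7 were 32, and 13 with a peak in every library, 7 with the upper part of peaks by score and 21 to 32 with a library left out (21 without H3K4me3 replicate 1 or 3). At P12 they were 12, and 4 with a peak in every library, 3 by score, 5 without input peaks, 4 with replicates 1 and 2 only and 4 to 14 with a library left out (4 without H3K27me3 replicate 3 or 4). At P21 they were 5, and 1 with a peak in every library, 1 by score, 3 without input peaks, 1 with replicates 1 and 2 only and 5 to 17 with a library left out (17 without H3K4me3 replicate 1). With an H3K4me3 library of P12 or P21 left out, a peak in the single library that remained was enough, so the rule there was looser. The cause of these moves was not tested.

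Single H3K27me3 calls were lost at 1 of 82 under DESeq2, at 14 of 77 in replicates 1 and 2 and at 21 of 82 in replicates 3 and later, both with fewer libraries. Against P7, and in H3K4me3, same-numbered libraries did not all deviate together (correlations of -0.107 to 0.299 for H3K27me3 with P7 and -0.301 to 0.0705 for H3K4me3), so the block rests on the numbers alone. Among the single calls followed, it ended 3 of 82 for H3K27me3, all from P12 to P21, and 19 of 23 for H3K4me3, which has 2 libraries each at P12 and P21.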
